A study of Mus musculus with 12 samples.

Results

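The complement and coagulation genes of the liver were taken as 52 gene symbols, each matched to 1 row of a table of 24411 genes, and compared between 3 genotypes with 3 mice each. Of these genes, 41 encode factors that hepatocytes secrete into plasma and 11 encode receptors and factors made mainly by other cells. The members were named by symbol, and the members and their lists were chosen with earlier results of these data known. Control mice (cont.) were *Atg7* flox/flox without Cre. *Atg7*-KO mice were *Atg7* flox/flox;Alb-Cre, in which the albumin promoter drives Cre and so deletes *Atg7*, a gene needed for autophagy, in hepatocytes. *Atg7*-KO;*p62* T352A mice carried in addition the knock-in allele p62T352A/p62T352A in every cell, which changes a threonine of p62 and was described by the study as keeping KEAP1, the inhibitor of the transcription factor NRF2, out of p62 bodies. These mice, labelled with the same floxed *Atg7* alleles and Alb-Cre, are called knock-in mice below. All groups shared the floxed *Atg7* alleles and a C57BL/6 background, and livers were taken at 3 months of age. The labels give no litter, sex or batch, and the knock-in comes from prime-edited embryonic stem cells. Whole liver RNA was sequenced, so that a lower level of a gene through fewer cells of a type and through less RNA per cell cannot be told apart.

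Complement is a plasma cascade in which recognition proteins (C1q, mannose-binding lectins) activate serine proteases that cleave C4, C2 and C3, after which C5 to C9 assemble a pore in the target membrane. Coagulation is a parallel cascade in which proteases, most of them activated on membranes through vitamin K-dependent modification, turn prothrombin into thrombin and fibrinogen into fibrin, which plasmin later dissolves. Hepatocytes are the main source of most of these plasma proteins, whereas C1q is made largely by macrophages, von Willebrand factor and thrombomodulin by endothelium, and the plasminogen activators by several non-parenchymal and epithelial cells.

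The libraries held between 9671073 and 23285134 counts. *Atg7* was measured at 46.4, 44.2 and 55.4 CPM in the cont. mice, 10.1, 9.57 and 12 in the *Atg7*-KO mice, and 29.7, 27.4 and 29.5 in the knock-in mice. It was therefore lowest in the *Atg7*-KO mice, and in the knock-in mice it lay between the other groups, 2.73-fold above *Atg7*-KO (FDR = 0.000164, edgeR) and 1.68-fold below cont. (FDR = 0.0206). *Sqstm1*, which encodes p62, and *Nqo1*, a target of NRF2, were above cont. in *Atg7*-KO livers, by 2.36-fold and 25.1-fold. Markers of the labelled tissue were abundant. The summed level of 5 hepatocyte markers (*Alb*, *Ttr*, *Apoa1*, *Apoh*, *Ambp*) was 69087 to 115325 CPM in cont., 35287 to 37293 CPM in *Atg7*-KO and 104861 to 121333 CPM in knock-in mice. None of these markers was at 0, and all 5 were lower in *Atg7*-KO, against 22.1% of all genes tested. The *Atg7* level of the knock-in mice was thus not as low as that of the *Atg7*-KO mice, although their labels give the same *Atg7* and Cre genotype, and each direction given for knock-in mice holds for mice so labelled. The mice numbered 1 stood apart in every genotype, with 7 to 28 counts of *Xist* against 8578 to 18335 in the mice numbered 2 and 3, so that values are also given without them where this matters.

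In *Atg7*-KO livers secreted factors were called lower more often than higher, and genes of other cells were called higher. A gene was called higher or lower where it changed by more than 1.5-fold with an FDR (Benjamini-Hochberg, edgeR quasi-likelihood test over all 13922 genes tested) below 0.05, and all 52 members passed the filter on low counts. In *Atg7*-KO against cont. livers, 20 of the 41 secreted factors were lower and 3 were higher (*Mbl2*, *Pros1*, *Cpb2*), where 22.1% of all genes tested were called lower and 21.6% higher. Their median log2 fold change was -0.80, beside -0.03 over all genes tested. Of the 11 genes of other cells, 9 were higher and 0 lower, with a median log2 fold change of 2.47. At an unadjusted p under 0.05 the number lower was also 0, and DESeq2 called 0 lower. Every *Atg7*-KO mouse lay below every cont. mouse in 26 of the 41 secreted factors, against 26.3% of all genes tested, and above in 3 of them and in 9 of the 11 genes of other cells, against 29.2%.

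Knock-in livers were then set against *Atg7*-KO livers, and 21 secreted factors were higher and 4 lower (*Masp1*, *Pros1*, *F13b*, *Cpb2*), beside 24.7% and 26.2% of all genes tested, and 9 of the 11 genes of other cells were lower and 0 higher. The groups did not overlap in 26 secreted factors that were higher (36.4% of all genes tested) and in all 11 genes of other cells, which were lower (36.8%). The number of these called higher was again 0 at an unadjusted p under 0.05 and in DESeq2. This comparison shares the *Atg7*-KO mice with the one before, so that the opposite signs are not independent of each other. In knock-in against cont. livers, 2 secreted factors were higher (*Mbl2*, *F10*) and 3 lower (*Masp1*, *Proz*, *F13b*). Of the genes of other cells 1 was higher (*C5ar1*) and 0 lower, beside 6.25% higher and 5.34% lower over all genes tested. This contrast does not use the level of the *Atg7*-KO mice, but its spread was estimated in the fit that includes them. With the 2 genotypes alone none of these calls remained, and over all genes 23 were higher and 27 lower. The mice did not overlap in 6 secreted factors that were higher (15.5% of all genes tested) and 3 that were lower (11.2%). An unadjusted p under 0.05 gave 3 genes of other cells higher and 1 lower, and 6 secreted factors higher and 6 lower. DESeq2 called 1 gene of other cells higher and 1 lower, and 3 secreted factors higher and 4 lower. The median log2 fold changes in this comparison were -0.07 for the secreted factors and 0.53 for the genes of other cells.

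**Figure D1:**
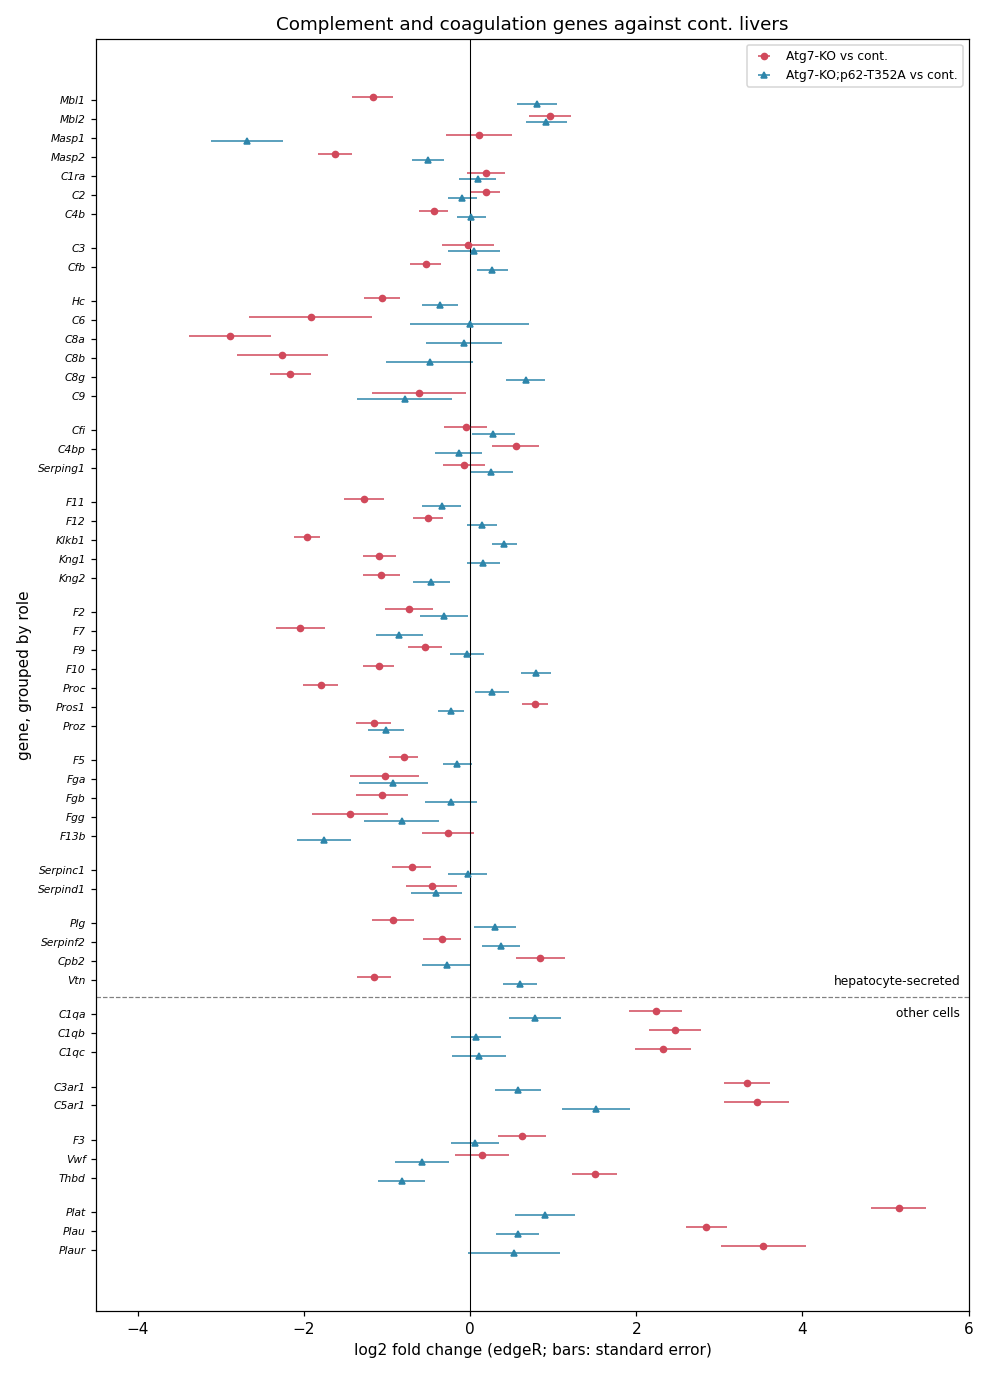
Log2 fold change (horizontal axis, bars show the standard error, 3 mice per genotype) of the 52 genes, listed by role from top to bottom, in *Atg7*-KO (red circles) and knock-in livers (blue triangles), each against cont. Above the dashed line most red circles of the secreted factors lie left of 0 (20 of 41 called lower). Below it all 11 red circles lie right of 0, and 9 of these genes are called higher. The blue triangles called apart from cont. are those of *Mbl2*, *F10* and *C5ar1* to the right and *Masp1*, *Proz* and *F13b* to the left.

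The size of the change in the secreted factors depended on how libraries were scaled. As a share of each library's counts the 52 genes together took 2.89% to 3.52% in cont., 2.89% to 3.16% in *Atg7*-KO and 2.57% to 3.61% in knock-in mice. TMM, which scales libraries so that the bulk of genes is centred, used factors of 1.28 to 1.32 in *Atg7*-KO and 0.75 to 0.95 in the other mice. The scaled summed level of the secreted factors was therefore 36305 ± 9128 CPM in cont., 22411 ± 1134 CPM in *Atg7*-KO and 35492 ± 7184 CPM in knock-in mice (mean ± SD, n = 3). Scaled by library totals alone, the median of all genes tested moved to 0.55 in *Atg7*-KO against cont., with 5926 of 13922 genes called higher and 1103 lower. Of the secreted factors 9 were then called lower and 6 higher. All 9 (*Masp2*, *C8a*, *C8b*, *C8g*, *F11*, *Klkb1*, *F7*, *Proc* and *Vtn*) were also among the 20, while the median of the secreted set, -0.22, stayed below that of all genes. With either scaling the genes of other cells were higher in *Atg7*-KO (9 with TMM and 10 without it), and their summed level was 152 ± 28.5, 762 ± 30.0 and 187 ± 75.1 CPM in cont., *Atg7*-KO and knock-in mice.

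The promoters of the secreted genes are shown for 6 members, to set beside the values below: 3 called lower in *Atg7*-KO livers (*C8a*, *Klkb1*, *Vtn*) and the 3 fibrinogen chains, whose genes are neighbours. They were chosen after their values were seen. RefSeq promoters (GRCm38.p6) were matched for 38 of the 52 members, and 37 had a single entry. Letters searched on both strands in the 250 bases before the start were GTTAAT (the core of the hepatocyte nuclear factor 1 motif), TTGCNNAA (C/EBP), CAAAGTCC (hepatocyte nuclear factor 4) and TGACNNNGC (the antioxidant response element bound by NRF2), and matches are in capitals below.
C8a (chr4:104876399-104876648, minus strand): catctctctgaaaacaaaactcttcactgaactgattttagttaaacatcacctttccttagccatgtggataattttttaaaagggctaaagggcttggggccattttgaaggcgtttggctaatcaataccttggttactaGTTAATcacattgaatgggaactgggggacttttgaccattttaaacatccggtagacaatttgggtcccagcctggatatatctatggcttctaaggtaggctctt
Klkb1 (chr8:45294836-45295085, minus strand): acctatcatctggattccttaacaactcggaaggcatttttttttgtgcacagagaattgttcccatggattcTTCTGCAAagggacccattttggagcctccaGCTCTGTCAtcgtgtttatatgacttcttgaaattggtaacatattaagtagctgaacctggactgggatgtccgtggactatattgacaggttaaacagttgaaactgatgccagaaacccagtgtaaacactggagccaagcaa
Vtn (chr11:78498870-78499119, plus strand): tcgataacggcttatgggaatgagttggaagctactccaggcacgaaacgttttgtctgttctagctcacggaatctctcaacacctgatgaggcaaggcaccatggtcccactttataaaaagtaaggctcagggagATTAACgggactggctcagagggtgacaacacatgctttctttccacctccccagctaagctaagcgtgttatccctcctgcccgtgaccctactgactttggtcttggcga
Fga (chr3:83025903-83026152, plus strand): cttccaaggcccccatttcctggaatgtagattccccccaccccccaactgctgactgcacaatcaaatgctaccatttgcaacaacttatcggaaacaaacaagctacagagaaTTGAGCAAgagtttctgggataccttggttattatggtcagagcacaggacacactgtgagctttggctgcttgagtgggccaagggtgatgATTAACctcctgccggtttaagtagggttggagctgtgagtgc
Fgb (chr3:83049864-83050113, minus strand): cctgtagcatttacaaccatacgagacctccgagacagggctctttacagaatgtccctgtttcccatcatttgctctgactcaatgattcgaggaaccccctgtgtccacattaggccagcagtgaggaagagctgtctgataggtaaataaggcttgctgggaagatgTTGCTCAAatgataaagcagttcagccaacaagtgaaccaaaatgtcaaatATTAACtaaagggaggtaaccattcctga
Fgg (chr3:83007474-83007723, plus strand): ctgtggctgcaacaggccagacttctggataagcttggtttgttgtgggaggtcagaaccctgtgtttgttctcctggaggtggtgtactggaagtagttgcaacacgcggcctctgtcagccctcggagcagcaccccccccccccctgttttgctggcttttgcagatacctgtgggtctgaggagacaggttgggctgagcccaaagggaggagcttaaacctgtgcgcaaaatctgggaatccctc
GTTAAT or its reverse complement was in 10 of 31 promoters of secreted factors (32.3%) and in 6.43% of 32851 RefSeq promoters, *C8a*, *Vtn*, *Fga* and *Fgb* among them. TTGCNNAA was in 8 of the 31 (25.8%) against 9.56% of all, among them *Klkb1*, *Fga* and *Fgb*. CAAAGTCC was in 0 of the 31 against 1.2% of all, and TGACNNNGC in 2 of the 31 (6.45%, *Klkb1* and *Serpind1*) against 10.2%. A match is a run of letters in this window, and whether any factor binds there was not tested.

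Among the 7 proteins that start complement activation, 2 were lower and 1 higher in *Atg7*-KO livers, near the shares over all genes tested (22.1% and 21.6%). *Masp2*, the protease of the lectin pathway that cleaves C4 and C2, was measured at 265, 342 and 397 CPM in the cont. mice, 107, 112 and 105 in the *Atg7*-KO mice, and 270.1, 234 and 202 in the knock-in mice. The groups cont. and *Atg7*-KO did not overlap, and *Masp2* was 3.1-fold lower (log2 -1.63 ± 0.20 SE, FDR = 0.000261) and then 2.18-fold higher in knock-in than in *Atg7*-KO livers (FDR = 0.00142). Of its exon bases 56.3% lie opposite *Tardbp*, and the strand setting of the counting is not given in the sources used here. The lectins themselves parted: *Mbl1* fell (-1.17, FDR = 0.00394) and *Mbl2* rose (0.96, FDR = 0.0118) in *Atg7*-KO, both on the log2 scale, and *Mbl2* was also higher than cont. in knock-in livers (0.92, FDR = 0.0435), a call lost in 13 of 20 alternatives, among them the mouse number as a block. The early proteins *C1ra*, *C2* and *C4b* were not called in any comparison, with log2 fold changes between -0.44 (*C4b*) and 0.19 (*C1ra*) in *Atg7*-KO against cont.

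*Masp1*, which activates *Masp2* in the lectin pathway, showed another pattern. It was measured at 66.4, 36.8 and 17.3 CPM in the cont. mice, 42.6, 48 and 39.6 in the *Atg7*-KO mice, and 8.28, 5.25 and 5.29 in the knock-in mice. Its level did not differ beyond the spread between *Atg7*-KO and cont. (log2 0.11 ± 0.40 SE, FDR = 0.842), and every knock-in mouse lay below every mouse of both other groups, 6.92-fold below *Atg7*-KO (FDR = 0.000689) and 6.42-fold below cont. (FDR = 0.00897).

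In the central step, neither *C3* nor *Cfb* was called in *Atg7*-KO against cont. *C3*, the protein on which all complement pathways converge, was measured at 5542, 3891 and 4126 CPM in the cont. mice, 4254, 4859.6 and 4170.0 in the *Atg7*-KO mice, and 2741, 6598 and 4683 in the knock-in mice. The groups overlapped in every comparison of *C3*. In cont. livers *C3* was the most abundant complement RNA per length, at 880.0 ± 174 RPKM (mean ± SD, n = 3). *Cfb*, the protease of the alternative pathway, was at 1025, 863 and 831 CPM in the cont. mice, 595, 669 and 611 in the *Atg7*-KO mice, and 929, 1207 and 1136 in the knock-in mice. The *Atg7*-KO mice lay below the others, and the difference from cont. passed the FDR but not the fold threshold (log2 -0.54 ± 0.19 SE, FDR = 0.0408). In knock-in livers *Cfb* was 1.75-fold higher than in *Atg7*-KO (FDR = 0.00594). Of the 75-base stretches of *Cfb* 69.9% and of those of *C2* 37% also lie in the readthrough gene *Gm20547*.

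The terminal components form the membrane pore. Of the 6 terminal genes, 4 were lower in *Atg7*-KO (*Hc*, *C8a*, *C8b*, *C8g*), against 22.1% of all genes tested. All 4 were higher in knock-in than in *Atg7*-KO, against 24.7%. In knock-in livers 0 of 6 differed from cont. by both thresholds (1 higher and 0 lower at an unadjusted p under 0.05, and 0 in DESeq2). That is near the shares over all genes tested in this comparison, 6.25% higher and 5.34% lower. *C8a*, a chain of the C8 protein that enters the membrane, was measured at 938, 552 and 266 CPM in the cont. mice, 109, 79.3 and 48.7 in the *Atg7*-KO mice, and 773, 496 and 398 in the knock-in mice. It was 7.42-fold lower in *Atg7*-KO, with no overlap (log2 -2.89 ± 0.49 SE, FDR = 0.00137). *C8g*, the lipocalin chain of C8, was at 508, 352.03 and 405 CPM in the cont. mice, 123, 84.7 and 74.8 in the *Atg7*-KO mice, and 678, 719 and 609.6 in the knock-in mice. That is 4.48-fold lower in *Atg7*-KO (FDR = 0.000161) and 7.11-fold higher in knock-in than in *Atg7*-KO (FDR = 5.69e-05).

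*Hc*, which encodes C5, was at 1109.8, 854 and 695 CPM in the cont. mice, 459, 444 and 374 in the *Atg7*-KO mice, and 758, 687 and 617 in the knock-in mice. Its fall was smaller, 2.08-fold (FDR = 0.00381). *C6* and *C9* were not called: *C6* had a log2 fold change of -1.92 ± 0.74 (SE) in *Atg7*-KO against cont. with FDR = 0.0574, and *C9* one of -0.62 ± 0.57 (SE) with FDR = 0.396. The ratio of *C8a* to *C8b* per transcript length was 1.31 to 2.19 in cont., 0.89 to 1.03 in *Atg7*-KO and 1.66 to 2.41 in knock-in mice, so that the *Atg7*-KO mice lay below both other groups.

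The terminal genes also differed by mouse number. In 5 of the 6 (all but *C8g*) the mouse numbered 1 was the highest of its genotype in all 3 genotypes, a pattern shown by 7 of the 41 secreted factors and by 6.22% of all genes tested. *C6*, which joins C5b to the rest of the pore, was at 306, 131 and 49.8 CPM in the cont. mice, 75.5, 29.3 and 23.8 in the *Atg7*-KO mice, and 307, 102 and 76 in the knock-in mice, and its mouse numbered 1 was 3.38, 2.85 and 3.44 times the mean of the other mice in cont., *Atg7*-KO and knock-in. *C6* was called lower in *Atg7*-KO in 8 of 20 alternatives, among them DESeq2, the mouse number as a block and the fit without the mice numbered 1. The mice numbered 1 also differ from the others in *Xist*, whose part in the result was not tested.

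**Figure D2:**
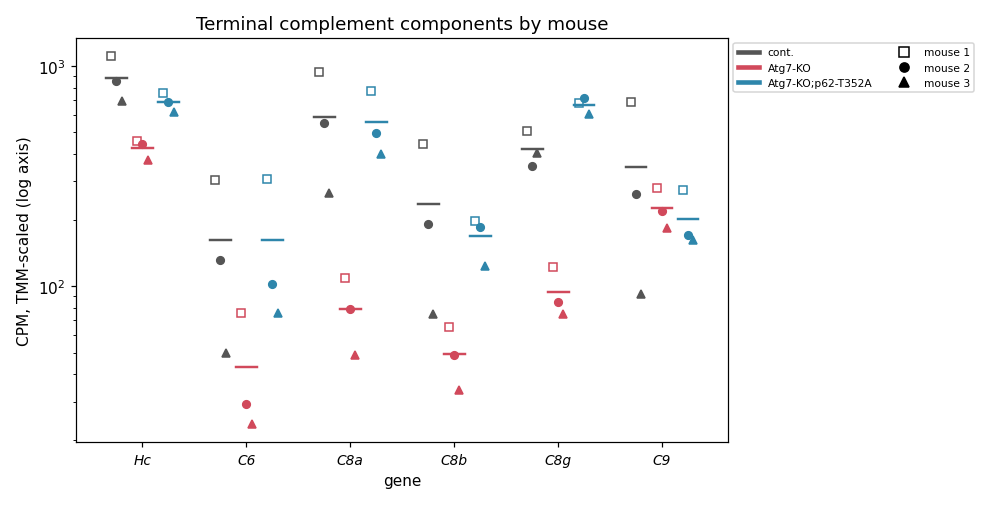
Level (TMM-scaled CPM, log axis) of the 6 terminal complement genes in each mouse of cont. (grey), *Atg7*-KO (red) and knock-in (blue), where open squares, circles and triangles mark the mice numbered 1, 2 and 3 and short lines mark group means. The red points of *C8a*, *C8b*, *C8g* and *Hc* lie below all others of the gene, and open squares are highest in each group for every gene except *C8g*.

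Of the 3 secreted inhibitors of complement 0 were called in any comparison of the edgeR fit of all mice without a block, and in *Atg7*-KO against cont. 0 were called by DESeq2 and 0 had an unadjusted p under 0.05. In that comparison 21.6% of all genes tested were called higher and 22.1% lower. *Cfi*, the protease that inactivates C3b and C4b, was at 590.4, 334 and 314 CPM in the cont. mice, 409, 407 and 378 in the *Atg7*-KO mice, and 436, 578 and 489 in the knock-in mice. *C4bp*, its cofactor for C4b, was at 643, 341 and 303 CPM in the cont. mice, 709, 612 and 557 in the *Atg7*-KO mice, and 428, 395 and 347 in the knock-in mice. *Serping1*, the C1 inhibitor that also blocks kallikrein, was at 859, 503 and 440.0 CPM in the cont. mice, 645, 532 and 534 in the *Atg7*-KO mice, and 694, 744 and 711 in the knock-in mice. In each of the 3 genes the cont. and *Atg7*-KO mice overlapped. *C4bp* was called lower in knock-in than in *Atg7*-KO livers in 9 of 20 alternatives, among them DESeq2 and the mouse number as a block, and higher in *Atg7*-KO than in cont. without the mice numbered 1.

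The contact system, which starts the intrinsic pathway of coagulation and releases bradykinin, had 4 of 5 genes called lower in *Atg7*-KO and all 5 called higher in knock-in than in *Atg7*-KO. Over all genes tested, 22.1% were called lower in *Atg7*-KO and 24.7% higher in knock-in than in *Atg7*-KO. In the latter comparison DESeq2 called 4 of the 5, and the call of *Kng2* was lost in 13 of 20 alternatives, the mouse number as a block among them, and that of *F12* in 7. *Klkb1*, plasma prekallikrein, was measured at 194, 192 and 208 CPM in the cont. mice, 52.9, 52.2 and 47 in the *Atg7*-KO mice, and 274, 245 and 271 in the knock-in mice. The mice of a group lay close together, and *Klkb1* was 3.91-fold lower in *Atg7*-KO (log2 -1.97 ± 0.16 SE, FDR = 3.07e-05) and 5.2-fold higher in knock-in than in *Atg7*-KO (FDR = 1.99e-05). *Klkb1* shares 42.4% of its 75-base stretches with the overlapping gene *Gm45753*.

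*Kng1*, the kininogen that kallikrein cleaves to bradykinin, was at 2358, 2429.6 and 2821 CPM in the cont. mice, 1207, 1219 and 1136 in the *Atg7*-KO mice, and 2481, 3250.1 and 2759.8 in the knock-in mice. It was 2.14-fold lower in *Atg7*-KO (FDR = 0.00187) and in cont. reached 1388 ± 137 RPKM (mean ± SD). *Kng2* and *F11* fell by similar amounts, with log2 fold changes of -1.07 and -1.28. *F12*, whose activation begins the contact pathway, passed the FDR but not the fold threshold (log2 -0.51 ± 0.18 SE, FDR = 0.0417).

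Of the 7 vitamin K-dependent proteins, 4 were lower in *Atg7*-KO (*F7*, *F10*, *Proc*, *Proz*) and *Pros1*, the cofactor of activated protein C, was higher (log2 0.78 ± 0.16 SE, FDR = 0.00361). The shares over all genes tested were 22.1% lower and 21.6% higher. *F7*, the partner of tissue factor at the start of coagulation, was measured at 84.9, 109.6 and 153 CPM in the cont. mice, 27.9, 30.9 and 25.5 in the *Atg7*-KO mice, and 46.8, 89.6 and 56.2 in the knock-in mice. It was 4.12-fold lower in *Atg7*-KO (FDR = 0.000549), without overlap. *Proc*, the anticoagulant protease protein C, was at 415, 578 and 686 CPM in the cont. mice, 168, 156 and 158 in the *Atg7*-KO mice, and 639, 723 and 653 in the knock-in mice. Its fall was 3.49-fold (FDR = 0.00021), so that a procoagulant and an anticoagulant protease were both lower. Prothrombin (*F2*) and *F9* were not called, with log2 fold changes of -0.74 (FDR = 0.0586) and -0.55 (FDR = 0.053).

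*F10*, the protease that makes thrombin from prothrombin, was the only member called in opposite directions against cont. in the mutant groups. It was at 407, 397 and 447 CPM in the cont. mice, 196, 200.4 and 187 in the *Atg7*-KO mice, and 616, 857 and 688 in the knock-in mice. The 3 groups did not overlap, and *F10* was 2.15-fold lower in *Atg7*-KO (FDR = 0.00124) and 1.73-fold higher in knock-in than in cont. (FDR = 0.0252). The call against cont. in knock-in livers was lost in 8 of 20 alternatives, among them the fit with the 2 genotypes alone. *Proz*, a cofactor for inhibition of factor Xa, was at 308, 225 and 238 CPM in the cont. mice, 119, 119.5 and 106 in the *Atg7*-KO mice, and 118, 161 and 102 in the knock-in mice. It stayed low in both mutant groups, 2.24-fold below cont. in *Atg7*-KO (FDR = 0.00216) and 2.02-fold in knock-in (FDR = 0.0192).

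**Figure D3:**
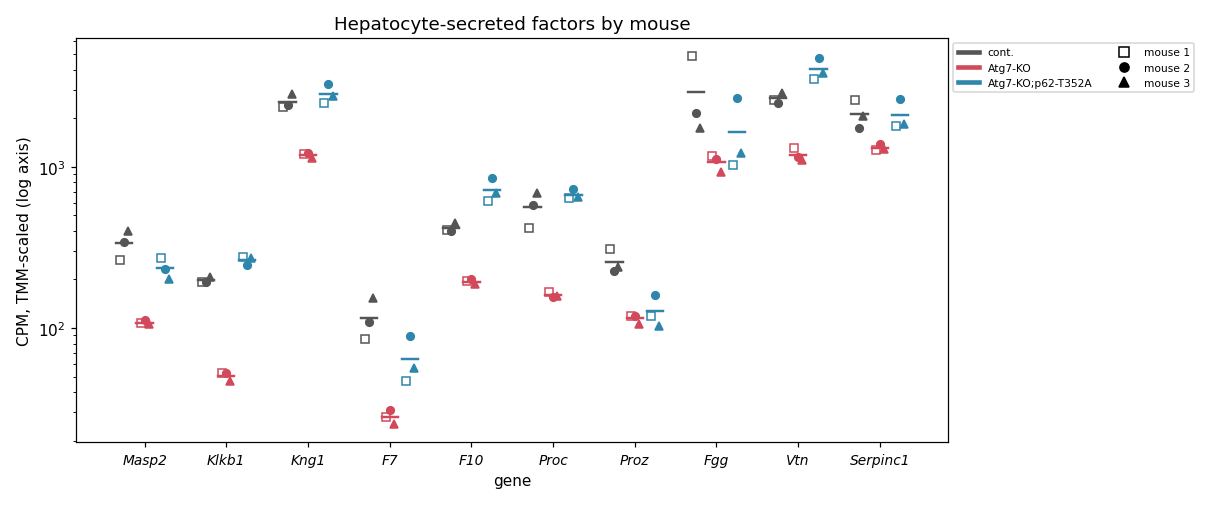
Level (TMM-scaled CPM, log axis) of 10 secreted factors in each mouse, drawn as in the plot of the terminal components: cont. grey, *Atg7*-KO red, knock-in blue, open squares for the mice numbered 1, short lines for group means. All 10 are among the factors called lower in *Atg7*-KO, so that the red points lie below the grey ones by this choice. Factors called higher or not called are not drawn. The blue points overlap the grey ones in 6, lie above them for *Klkb1*, *F10* and *Vtn* and below them for *Proz*.

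Of the 5 genes of factor V, fibrinogen and factor XIII, 3 were called lower in *Atg7*-KO (*F5*, *Fgb*, *Fgg*), against 22.1% of all genes tested. *Fgg*, the fibrinogen gamma chain, was at 4851, 2154 and 1731 CPM in the cont. mice, 1175, 1115 and 926 in the *Atg7*-KO mice, and 1026, 2688 and 1212 in the knock-in mice. The cont. mouse numbered 1 was far above the other cont. mice, and the fall of 2.72-fold (log2 -1.44 ± 0.46 SE, FDR = 0.0276) was not called without the mice numbered 1, without cont. mouse 1 or without any single *Atg7*-KO mouse. *Fga* had a log2 fold change of -1.03 ± 0.41 (SE) that missed the FDR (0.0657) and *Fgb* one of -1.06 ± 0.32 that passed it (FDR = 0.0209). The *Fgb* call was also lost without the mice numbered 1 and without any single *Atg7*-KO mouse. The ratio of *Fga* to *Fgb* per transcript length was 1.43 to 1.46 in *Atg7*-KO and 0.83 to 0.91 in knock-in mice, against 1.00 to 1.64 in cont.

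*F13b*, the carrier chain of the fibrin cross-linking factor XIII, was at 233, 109 and 105 CPM in the cont. mice, 124, 139 and 109 in the *Atg7*-KO mice, and 34.6, 55.1 and 41.9 in the knock-in mice. Like *Masp1* it was not called between *Atg7*-KO and cont. (FDR = 0.515) and was below both in every knock-in mouse, 3.4-fold below cont. (FDR = 0.0122). *Serpinc1*, antithrombin, was at 2608, 1751 and 2058 CPM in the cont. mice, 1266, 1378 and 1295 in the *Atg7*-KO mice, and 1789.7, 2643 and 1848 in the knock-in mice, and its 1.63-fold fall in *Atg7*-KO (FDR = 0.0333) was lost in 10 of 20 alternatives. Of its exon bases 58.3% lie opposite *Zbtb37*. *Serpind1*, heparin cofactor II, was at 788, 387 and 324 CPM in the cont. mice, 361, 375 and 351 in the *Atg7*-KO mice, and 346, 430.0 and 352.01 in the knock-in mice, and its groups overlapped.

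In fibrinolysis, plasminogen (*Plg*) and *Vtn* were lower in *Atg7*-KO and *Cpb2*, the carboxypeptidase that slows clot lysis, was higher (log2 0.85 ± 0.29 SE, FDR = 0.0388), a call lost in 10 of 20 alternatives. *Vtn*, vitronectin, which stabilises the plasminogen activator inhibitor PAI-1, was measured at 2607, 2489.6 and 2871 CPM in the cont. mice, 1306, 1156 and 1095 in the *Atg7*-KO mice, and 3524, 4729.9 and 3816 in the knock-in mice. It was 2.24-fold lower in *Atg7*-KO (FDR = 0.00169) and 3.39-fold higher in knock-in than in *Atg7*-KO (FDR = 0.000196), where it was above every cont. mouse without being called (1.52-fold, FDR = 0.0851). *Serpinf2*, the inhibitor of plasmin, was not called in *Atg7*-KO against cont. (log2 -0.34 ± 0.23 SE).

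Of the 11 genes of other cells, 9 rose in *Atg7*-KO livers, all but *F3* and *Vwf*. *C1qa*, the A chain of C1q, was at 51.6, 38.2 and 36 CPM in the cont. mice, 188, 191 and 214 in the *Atg7*-KO mice, and 39.1, 102 and 74.5 in the knock-in mice. *C1qb* was at 55.5, 37.9 and 35.4 CPM in the cont. mice, 236, 231 and 246 in the *Atg7*-KO mice, and 26.8, 64.4 and 44.3 in the knock-in mice. *C1qc* was at 60, 43.6 and 34.2 CPM in the cont. mice, 233, 219 and 239 in the *Atg7*-KO mice, and 27.7, 71.9 and 48.8 in the knock-in mice. All 3 chains rose together, 4.7-, 5.53- and 5.01-fold, with no overlap (FDR = 0.000581, 0.000301 and 0.000607). In knock-in livers *C1qb* and *C1qc* had log2 fold changes of 0.07 ± 0.30 and 0.10 ± 0.32 (SE) against cont., and *C1qa* one of 0.78 ± 0.31 (FDR = 0.137). The ratio of *C1qa* to *C1qb* per transcript length was 0.97 to 1.07 in cont., 0.83 to 0.91 in *Atg7*-KO and 1.52 to 1.76 in knock-in mice, while that of *C1qc* to *C1qb* was 0.87 to 1.04, 0.86 to 0.89 and 0.93 to 1.01.

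The receptors for the anaphylatoxins, the fragments of C3 and C5 that call in immune cells, rose as well. *C3ar1*, the C3a receptor, was at 3.21, 2.46 and 2.42 CPM in the cont. mice, 26.2, 27.6 and 28.7 in the *Atg7*-KO mice, and 2.43, 4.55 and 5.16 in the knock-in mice. *C5ar1*, the C5a receptor, was at 0.688, 0.662 and 0.33 CPM in the cont. mice, 6.19, 7.48 and 5.5 in the *Atg7*-KO mice, and 0.928, 2.17 and 1.89 in the knock-in mice, from 12, 7 and 3 counts in the cont. mice. They rose 10.1-fold (FDR = 3.9e-05) and 10.9-fold (FDR = 0.000168) in *Atg7*-KO. *C5ar1* was also called higher in knock-in than in cont. (2.86-fold, FDR = 0.0409), although the lowest of those mice lay close to the cont. mice, and that call was lost in 11 of 19 alternatives.

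Some macrophage markers moved with these genes and others did not. Of 7 markers fixed for macrophages and Kupffer cells, 4 were higher in *Atg7*-KO (*Adgre1*, *Cd68*, *Csf1r*, *Cd5l*), against 21.6% of all genes tested. *Timd4*, a marker of resident Kupffer cells, was lower (log2 -1.31). In knock-in against *Atg7*-KO livers 4 of the 7 were lower and 2 higher, against 26.2% and 24.7% of all genes tested. The summed level of the 7 markers was 261 to 313 CPM in cont., 687 to 751 CPM in *Atg7*-KO and 179 to 335 CPM in knock-in mice. None of the markers was at 0, and their part in the rise of C1q and the receptors was not tested.

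All 3 plasminogen activation genes rose in *Atg7*-KO livers, where 21.6% of all genes tested were called higher, and *Plat* had the largest fold change of the 52 genes. *Plat*, tissue plasminogen activator, was at 0.401, 0.378 and 0.879 CPM in the cont. mice, 20.1, 18.5 and 18.5 in the *Atg7*-KO mice, and 1.21, 0.7 and 1.04 in the knock-in mice, from 7, 4 and 8 counts in the cont. mice. *Plau*, urokinase, was at 1.32, 0.946 and 1.1 CPM in the cont. mice, 8.8, 7.56 and 8.23 in the *Atg7*-KO mice, and 1.57, 1.47 and 2.02 in the knock-in mice. *Plaur*, the urokinase receptor, was at 0.287, 1.04 and 1.1 CPM in the cont. mice, 7.06, 8.67 and 10.6 in the *Atg7*-KO mice, and 0.5, 1.12 and 1.63 in the knock-in mice. They rose 35.7-fold (log2 5.16 ± 0.33 SE, FDR = 1.37e-05), 7.18-fold (FDR = 4.6e-05) and 11.5-fold (FDR = 0.000576) without overlap. In knock-in livers none of the 3 was called against cont., with log2 fold changes of 0.90 ± 0.36, 0.57 ± 0.26 and 0.53 ± 0.55 (SE), and DESeq2 called 0 of them while 1 was higher at an unadjusted p under 0.05. Over all genes tested 6.25% were called higher and 5.34% lower in this comparison.

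Markers of 2 further cell types rose in the same mice, in which 21.6% of all genes tested were called higher. Of 6 cholangiocyte markers 5 were higher in *Atg7*-KO, with a summed level of 829 to 1024 CPM against 33.6 to 51.6 CPM in cont. and 181 to 266 CPM in knock-in mice. Of 6 stellate cell markers 4 were higher, with a summed level of 818 to 969 CPM against 229 to 287 CPM in cont. and 340 to 577 CPM in knock-in mice. Their part in the rise of the plasminogen activators was not tested.

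*Thbd*, thrombomodulin, which turns thrombin into an activator of protein C, was at 4.64, 4.73 and 3.19 CPM in the cont. mice, 13, 11.8 and 11 in the *Atg7*-KO mice, and 1.93, 3.36 and 1.83 in the knock-in mice. It was 2.82-fold higher in *Atg7*-KO (FDR = 0.00189) and 5.01-fold lower in knock-in than in *Atg7*-KO (FDR = 0.000209). Neither *F3*, tissue factor, nor *Vwf*, von Willebrand factor, was called in *Atg7*-KO. *F3* was at 2.18, 3.69 and 4.18 CPM in the cont. mice, 4.01, 5.79 and 5.42 in the *Atg7*-KO mice, and 3, 3.43 and 3.85 in the knock-in mice, and *Vwf* was at 4.58, 7.94 and 11.8 CPM in the cont. mice, 9.09, 9.25 and 8.19 in the *Atg7*-KO mice, and 6.14, 6.02 and 3.92 in the knock-in mice. The cont. and *Atg7*-KO mice overlapped for both genes.

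**Figure D4:**
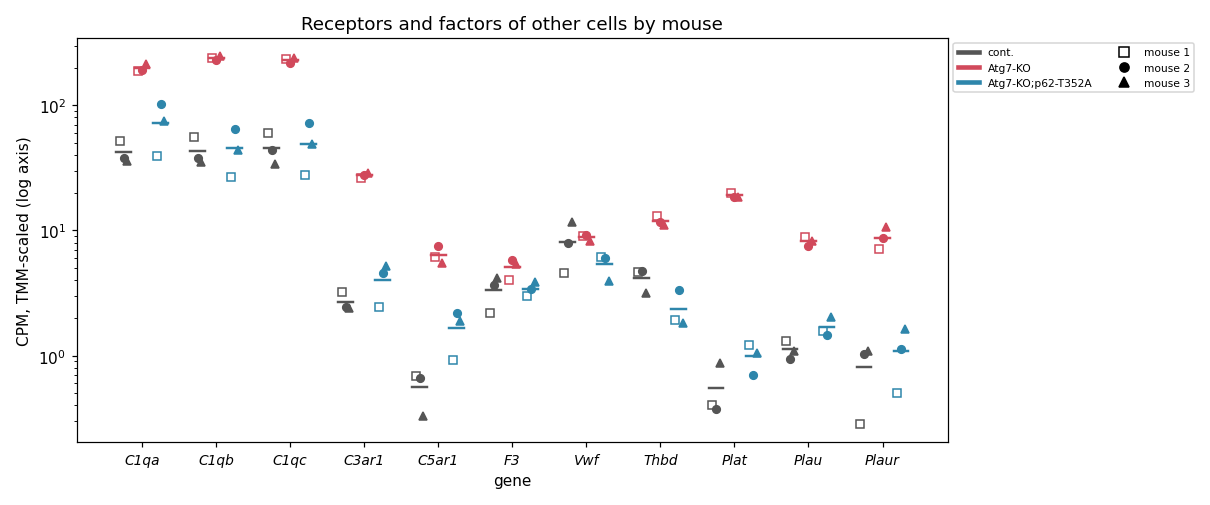
Level (TMM-scaled CPM, log axis) of the 11 receptors and factors of other cells in each mouse of cont. (grey), *Atg7*-KO (red) and knock-in (blue), with open squares for the mice numbered 1 and short lines for group means. The red points stand above both other groups in 9 genes and overlap the grey points for *F3* and *Vwf*.

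*Masp1* and *F13b* are set here beside markers of endothelium, of which some but not all were low in the same mice. *F8*, coagulation factor VIII, which liver endothelium makes and which is not among the 52 genes, was at 30.2, 17.2 and 12.1 CPM in the cont. mice, 20, 22.1 and 20.1 in the *Atg7*-KO mice, and 3.71, 4.55 and 3.98 in the knock-in mice. It was 4.88-fold below cont. in knock-in livers (FDR = 0.00584) and not called in *Atg7*-KO (log2 0.05 ± 0.29 SE). Of 7 markers of sinusoidal endothelium 5 were lower in knock-in than in cont. (*Stab2*, *Kdr*, *Pecam1*, *Cdh5*, *Oit3*), against 5.34% of all genes tested. *Kdr* was 6.14-fold lower (FDR = 0.00142). *Lyve1* and *Clec4g* were not called in that comparison (log2 0.35 and -0.51). *Stab2* was already 2.27-fold lower in *Atg7*-KO than in cont. (FDR = 0.00874), where *Masp1* and *F13b* were not called, while *Lyve1*, *Cdh5* and *Pecam1* were higher there. The summed level of the 7 markers was 297 to 348 CPM in cont., 294 to 305 CPM in *Atg7*-KO and 147 to 179 CPM in knock-in mice, and none was at 0. Their part in the fall of *Masp1* and *F13b* was not tested. Log2 fold changes of this comparison were also related to transcript length, with a Spearman correlation of -0.305 across 13815 genes, against 0.028 in *Atg7*-KO against cont., as a description across genes that are not independent replicates. With an offset for transcript length *Masp1* and *F13b* were still called lower. Their calls against cont. were lost in the fit with the 2 genotypes alone, and that of *F13b* also without knock-in mouse 3.

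**Figure D5:**
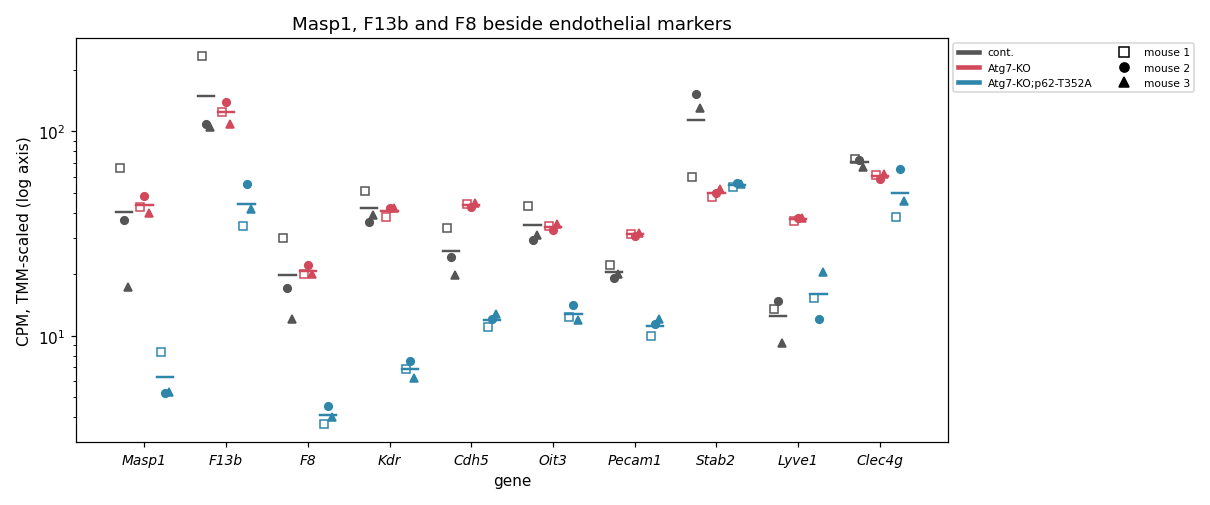
Level (TMM-scaled CPM, log axis) of *Masp1*, *F13b*, *F8* and 7 endothelial markers in each mouse of cont. (grey), *Atg7*-KO (red) and knock-in (blue), with open squares for the mice numbered 1 and short lines for group means. The blue points lie below all others for 7 of the 10 genes but not for *Stab2*, *Lyve1* and *Clec4g*, and the grey points of *Masp1* spread from 17.3 to 66.4 CPM.

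The other genes of both cascades were taken from a list of 53, of which 47 were tested. In *Atg7*-KO against cont. 15 were higher and 12 lower (21.6% and 22.1% of all genes tested), in knock-in against *Atg7*-KO 10 were higher and 18 lower (24.7% and 26.2%), and in knock-in against cont. 4 were higher and 5 lower (6.25% and 5.34%). The largest rises in *Atg7*-KO were those of *Serpina5*, the protein C inhibitor, with 1, 0 and 0 counts in the cont. mice and 19, 49 and 34 in the *Atg7*-KO mice, and of *F2rl1*, the protease-activated receptor PAR2, with 7, 0 and 0 counts against 163, 165 and 177. Both were near 0 in cont., so that no fold is given. The largest falls were those of *F2rl2*, the receptor PAR3 (0.287, 0.756 and 0.989 CPM in the cont. mice, 0.0967, 0.0822 and 0.0427 in the *Atg7*-KO mice, and 1, 0.771 and 0.783 in the knock-in mice), and of *Cd59a*, a membrane inhibitor of the complement pore (105, 177 and 201 CPM in the cont. mice, 51.5, 48.1 and 48.3 in the *Atg7*-KO mice, and 321, 253 and 339 in the knock-in mice). The fall of *F2rl2* rests on few reads, 5, 8 and 9 counts in the cont. mice and 2, 2 and 1 in the *Atg7*-KO mice.

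*Cd59a* fell 3.26-fold in *Atg7*-KO (FDR = 0.000608), and in knock-in livers it was 1.89-fold above cont. (FDR = 0.0387). *S100a10*, a plasminogen receptor subunit, was at 137, 94.3 and 114 CPM in the cont. mice, 216, 206 and 210.4 in the *Atg7*-KO mice, and 233, 321 and 171 in the knock-in mice. It was higher than cont. in both mutant groups, 1.83-fold (FDR = 0.0155) and 2.11-fold (FDR = 0.0242). *Serpine2*, a thrombin inhibitor of the cell surface, was at 30.5, 13.4 and 5.28 CPM in the cont. mice, 9.91, 11.3 and 10.1 in the *Atg7*-KO mice, and 3.5, 3.01 and 3.39 in the knock-in mice, and it was 5.02-fold below cont. in knock-in livers (FDR = 0.0214).

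The mice numbered 1 were also compared on their own. In these, with 1 mouse per genotype and no test, 31 of the 41 secreted factors were over 1.5-fold lower in *Atg7*-KO than in cont. and 2 were higher, beside 19.3% and 27.7% of all genes, and all 11 genes of other cells were over 1.5-fold higher. In the same mice 17 secreted factors were higher and 6 lower in knock-in than in *Atg7*-KO (30.9% and 31.6% of all genes), and 9 genes of other cells were lower. For the secreted factors in knock-in against cont. these mice gave a median log2 ratio of -0.38, with 14 factors over 1.5-fold lower and 2 higher (21.1% and 31.7% of all genes). The mice numbered 2 and 3 gave 6 calls higher in edgeR, and *Masp1*, *Masp2*, *Proz* and *F13b* were called lower. A ratio without a test and an edgeR call are unlike measures, so their counts cannot be compared directly. Leaving out the mice numbered 1 moved the number of secreted factors called higher from 2 to 6. Leaving out cont. mouse 1 alone gave 7 higher and 6 lower. Calls over all genes rose too, from 870 higher and 743 lower of 13922 tested. They were 1314 and 1661 of 14060 without the mice numbered 1, and 1514 and 1731 of 14207 without cont. mouse 1.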

How the data were processed

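Poly(A) RNA of livers was sequenced, and the deposited values are expected counts that the authors estimated with RSEM, after trimming single-end reads with Trim Galore and mapping them to mm10 with STAR. Versions, annotation and strand setting are not given in the sources used here. Estimated counts were rounded to whole numbers. Each column was matched to a mouse by the genotype and number in its label. Labels of 3 further mice, with the p62 knock-in alone, have no column and were not analysed here. Nothing in the labels describes separate litters or batches, so p-values measure the spread between these mice. The main fit holds genotype only. In each genotype its spread therefore includes the difference between the mouse numbered 1, low in *Xist*, and the other mice.

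Genes were kept by filterByExpr (13922), scaled by TMM and fitted for 3 genotypes in 1 quasi-likelihood model (R 4.3.3, edgeR 4.0.16). Called genes had an FDR under 0.05 and over 1.5-fold change. CPM are TMM-scaled, RPKM divide them by transcript length (GENCODE, GRCm38), ± after a log2 value is the standard error, and libraries held 9671073 to 23285134 counts. DESeq2 1.42.0 and the other alternatives are described in the closing section. Values in every mouse were given for the members with the largest called change of each role list, all members of lists of 3 or fewer, members called in opposite directions, and the 2 largest rises and falls among the other cascade genes. The members and lists were chosen with earlier results of these data known.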

Additional observations from a re-analysis of the deposited data

How the results depend on the processing

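The counts of members called in *Atg7*-KO against cont. and in knock-in against *Atg7*-KO stayed within 1.5 times of the values given for all alternatives except the scaling by library totals and the leaving out of single mice. Library totals without TMM (chosen after seeing the data) gave 6 secreted factors higher and 9 lower in *Atg7*-KO against cont. Over all 13922 genes tested 5926 were then called higher and 1103 lower. In knock-in against *Atg7*-KO this scaling gave 9 secreted factors higher and 8 lower, beside 1342 higher and 6138 lower over all genes. The median over all genes (log2) shifted from -0.03 to 0.55 and from 0.002 to -0.574 in these comparisons. Upper-quartile scaling moved these medians to 0.082 and -0.135, with 3366 genes higher and 2581 lower in *Atg7*-KO against cont. and 2897 and 4141 in knock-in against *Atg7*-KO. Leaving out 1 mouse at a time gave 1 to 4 secreted factors higher (1 without cont. mouse 2) and 16 to 23 lower in *Atg7*-KO, and 13 to 22 higher (13 without *Atg7*-KO mouse 3) in knock-in against *Atg7*-KO.

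Counts in knock-in against cont. were small and moved more, and the cause was not tested. Secreted factors called higher, 2 in the report, were 1 with no filter, with DESeq2 size factors, with upper-quartile scaling and with the length offset (chosen after seeing the data), 0 with 2 genotypes alone, 6 without the mice numbered 1 and 0 to 7 without 1 mouse. Those called lower, 3 in the report, were 0 with 2 genotypes alone and 1 to 6 without 1 mouse. Of the genes of other cells, 1 in the report, the number higher was 0 with at least 10 counts in every mouse (which tests 49 of the 52 members), with DESeq2 size factors, with 2 genotypes alone and with the length offset, 3 without the mice numbered 1 and 0 to 2 without 1 mouse. The number lower, 0 in the report, was 1 with DESeq2 and without the mice numbered 1, and 0 to 1 without 1 mouse. With 2 genotypes alone 23 genes were called higher and 27 lower over all genes in this comparison, against 870 and 743 in the fit of 3 genotypes. Without the mice numbered 1 they were 1314 and 1661, and without cont. mouse 1 alone 1514 and 1731. No called member changed direction under any alternative run.

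The mouse numbers were not taken as pairs, since deviations from the genotype mean were not correlated for every number: the 3 pairs numbered 1 had correlations of 0.137 to 0.271 and those numbered 3 of 0.181 to 0.321, but those numbered 2 of -0.202 to 0.0926. Of 9 mice 5 correlated best with their own number. The mouse number as a replicate block left 0 secreted factors and 0 genes of other cells called higher in knock-in against cont. and moved no other count of members by over 1.5 times. With 3 mice per genotype, differences under 1.5-fold were not called by construction, and genes with few counts in cont. (*C5ar1*, *Plat*, *Plaur*) have the least precise folds.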
